A study of Homo sapiens with 12 samples.

Results

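The 10 genes described here encode transcription factors of the primitive streak and the posterior embryo, namely T (brachyury), EOMES, TBX6, MIXL1, GSC, LHX1, MESP1, CDX1, CDX2 and EVX1. They were chosen by name, as the rows of the expression tables that carry these symbols, and all 10 were found among 23613 gene symbols. H9 and RUES2 are established lines of human embryonic stem cells, and RNA from their colonies was sequenced in 4 groups, each with 3 libraries that the design text calls biological replicates. The study compared cells in a naive state, a culture condition meant to resemble the preimplantation epiblast, with cells in the conventional primed state. Naive H9 (passages 27 to 31) and naive RUES2 (passages 24 to 26) were grown with PD0325901 (1 µM), which inhibits MEK, CHIR99021 (3 µM), which inhibits GSK3, LIF (20 ng/mL), 18 µg/mL insulin and 5 mM glucose. Primed H9 (passages 31 to 35) and primed RUES2 (passages 30 to 33) were grown with 4 ng/mL bFGF on mouse embryonic fibroblast feeders that had been treated with mitomycin C. The labels of the naive libraries name neither feeders nor an mTOR inhibitor. Medium and passage changed together between the states, and the labels name feeders for primed cultures alone, so the parts of these in any difference cannot be told apart.

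The primitive streak is the site where epiblast cells leave the epithelium and become mesoderm and endoderm. It is induced by WNT, NODAL, BMP and FGF signals, and WNT acts through beta-catenin, which GSK3 otherwise marks for destruction. T, EOMES and MIXL1 are among the first factors switched on in cells entering the streak, whereas the CDX factors and EVX1 belong to its posterior part and to the later tail bud, where CDX proteins activate HOX genes.

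Values are given as FPKM, a scale of sequenced fragments that is adjusted for the length of the transcript and the depth of the library. Depth relative to the mean library ran from 0.655 to 1.533, and each library had 12681 to 13592 genes at 1 FPKM or more. In a check on genes that depend on genotype, 3 of 12 libraries, none of them H9 by label, differed from the rest of the libraries given that line name. Comparisons that use libraries labelled RUES2 therefore rest on the label and could not be made without these libraries. The fold changes within H9 use none of them. Their standard errors and p-values do, since the model shares 1 estimate of the spread over all 12 libraries. Nothing in the labels says that replicates came from separate cultures, so p-values measure the spread between libraries. In RNA from whole colonies, fewer cells of a kind and less RNA per cell cannot be told apart. POU5F1, the defining factor of pluripotent cells, averaged 436 ± 17.7 FPKM in naive H9 and 909.8 ± 104 FPKM in primed H9, and 527 ± 64.9 FPKM in naive and 779 ± 108 FPKM in primed libraries labelled RUES2 (SD, n = 3 each).

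In naive cells 7 of the 10 factors were higher than in primed cells, in H9 and in libraries labelled RUES2 alike. These were T, EOMES, MIXL1, MESP1, CDX1, CDX2 and EVX1, and for each of them the naive and primed libraries did not overlap in either line. Over all genes tested, every naive library was above every primed one for 27% in H9 and 29% with the RUES2 label, and below for 30.3% and 28.3%. LHX1 was lower in naive H9, TBX6 was lower in naive libraries labelled RUES2, and GSC was called in neither line. Calls are at a Benjamini-Hochberg adjusted p under 0.05 in a limma model of log2(FPKM + 1) over 14428 genes. In H9, 20.4% of all genes tested were called higher and 23.9% lower, and in libraries labelled RUES2, 23.1% were called higher and 23.6% lower. The median log2 fold change of the 10 members was 1.81 in H9 and 1.74 in libraries labelled RUES2, beside medians of -0.01 and 0.01 over all genes tested. All 10 members passed the filter of 1 FPKM in at least 3 libraries, but T, MESP1, CDX1, CDX2 and EVX1 would not have done so on their primed libraries alone, nor LHX1 on its naive ones. These had to differ to some degree to be tested, so the count and the median over the members describe them and are no support for a pattern. Fold changes on this scale understate those of low genes.

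**Figure D1:**
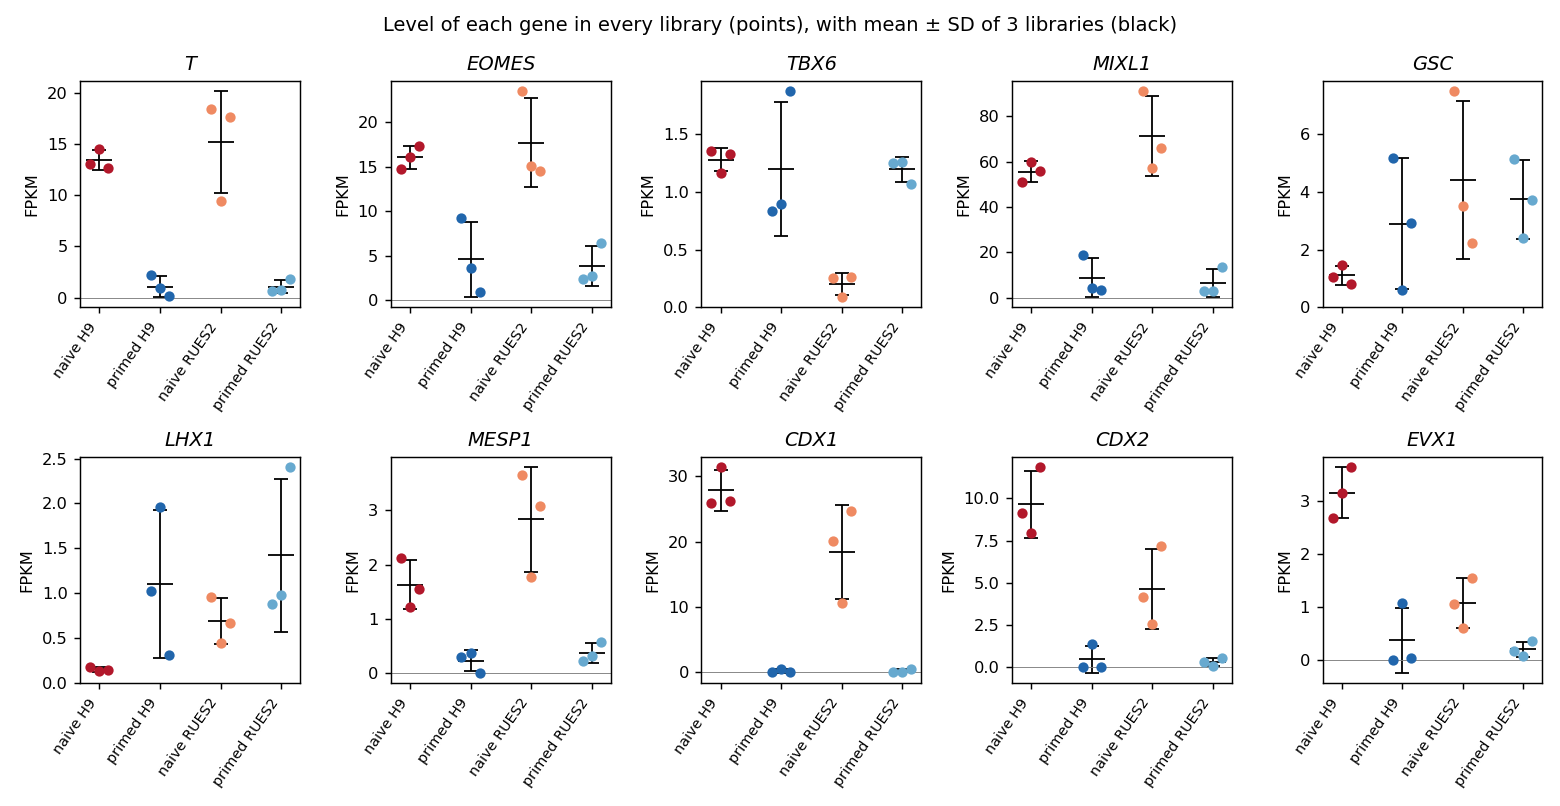
FPKM of each of the 10 factors in every library, 1 panel per gene on its own linear axis, with each naive group left of its primed group; points are libraries and black lines give the mean ± SD of 3 libraries. MIXL1, CDX1, EOMES and T have the highest naive levels, while TBX6, GSC and LHX1 do not share the pattern.

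By level, MIXL1 stood highest in naive H9 with a mean of 55.6 ± 4.5 FPKM, followed by CDX1 (27.8 ± 3.11), EOMES (16 ± 1.29), T (13.4 ± 0.977) and CDX2 (9.65 ± 2), all as SD with n = 3. EVX1, MESP1, TBX6 and GSC averaged 1.11 to 3.16 FPKM there and LHX1 0.153 ± 0.0255 FPKM. EOMES and T lay next to each other in naive H9, the lowest EOMES library at 14.8 FPKM and the highest T library at 14.5 FPKM. The authors' confidence bounds of these 2 values overlapped (13.7 to 15.8 and 13.2 to 15.8 FPKM), so they do not order the 2 genes. In naive libraries labelled RUES2 the order began with MIXL1 (71.4 ± 17.6 FPKM), and CDX1, EOMES and T overlapped, at 18.4 ± 7.17, 17.7 ± 5.03 and 15.2 ± 4.96 FPKM (SD, n = 3). In primed H9 MIXL1, EOMES and GSC had the highest means, 8.87 ± 8.5, 4.57 ± 4.26 and 2.9 ± 2.27 FPKM, and their libraries overlapped.

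The T-box factors bind DNA through a shared domain and mark successive steps of mesoderm formation. T, the activator of the streak, nascent mesoderm and notochord, lies at chr6:166571146-166582157 (hg19, as are all gene positions here). It had 13.04, 14.5 and 12.7 FPKM in naive H9, against 2.21, 0.91 and 0.146 FPKM in primed H9. In libraries labelled RUES2 it had 18.5, 9.48 and 17.6 FPKM in the naive state, against 0.607, 0.793 and 1.82 FPKM in the primed state. Every naive library lay above every primed library, the lowest naive one being replicate 2 with the RUES2 label. The log2 fold change was 2.91 ± 0.36 in H9 (SE, adjusted p = 0.000149) and 2.96 ± 0.36 in libraries labelled RUES2 (adjusted p = 0.000126), and the mean FPKM was 12.3 and 14.2 times as high in the naive state.

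EOMES, at chr3:27757886-27763785, is needed in the mouse for mesoderm to leave the streak and for definitive endoderm. Its level was 14.8, 16.1 and 17.3 FPKM in naive H9, against 9.22, 3.63 and 0.854 FPKM in primed H9. Naive libraries labelled RUES2 had 23.5, 15.1 and 14.5 FPKM, against 2.40, 2.72 and 6.43 FPKM in the primed ones. The naive libraries were close to each other in H9, and the primed H9 libraries were spread over a wide range. EOMES rose by a log2 fold change of 1.94 ± 0.52 in H9 (SE, adjusted p = 0.012) and 2.01 ± 0.52 in libraries labelled RUES2 (adjusted p = 0.00928).

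TBX6, the factor of presomitic mesoderm at chr16:30097115-30103205, did not follow the other T-box genes. It had 1.35, 1.17 and 1.33 FPKM in naive H9, against 0.839, 0.895 and 1.87 FPKM in primed H9, where the groups overlapped (log2 fold change 0.08 ± 0.16, adjusted p = 0.704). In libraries labelled RUES2 it had 0.258, 0.0936 and 0.264 FPKM in the naive state, against 1.25, 1.26 and 1.07 FPKM in the primed state, without overlap. There it fell by 0.87 on the log2 scale (SE 0.16, adjusted p = 0.00136), and its mean FPKM was 5.84 times as high in the primed libraries. The 2 effects differed by -0.95 ± 0.22 (RUES2 label minus H9, adjusted p = 0.0355). This difference missed the threshold when any 1 library other than primed H9 replicate 3 was left out (adjusted p 0.0515 to 0.0961), and without primed H9 replicate 3 the H9 log2 fold change was 0.29 (adjusted p = 0.0465).

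MIXL1, GSC and LHX1 are homeobox factors of the streak and of the tissue that leaves its front end. MIXL1, at chr1:226411383-226413513, is switched on in cells that will become mesoderm or endoderm. GSC, at chr14:95234560-95236499, and LHX1, at chr17:35294772-35301915, are known from the organizer and the anterior mesendoderm. RefSeq promoters (GRCh38.p14, 250 bases before the transcript start to 50 after it) were found for 7 of the 10 members, T under its current symbol TBXT, but not for LHX1, MESP1 and CDX1. They were searched on both strands for the letters CTTTGAT and CTTTGAA, bound by the TCF/LEF partners of beta-catenin, and for the T-box letters GGTGTGA. The 2 promoters with TCF/LEF letters, those of MIXL1 and CDX2, are shown so that the matched letters can be read in their context. The match is in capitals, 76 bases before the start in MIXL1 (chr1:226223414-226223663, plus strand) and 238 bases before it in CDX2 (chr13:27969316-27969565, minus strand), and each line gives the 250 bases before the start.
MIXL1: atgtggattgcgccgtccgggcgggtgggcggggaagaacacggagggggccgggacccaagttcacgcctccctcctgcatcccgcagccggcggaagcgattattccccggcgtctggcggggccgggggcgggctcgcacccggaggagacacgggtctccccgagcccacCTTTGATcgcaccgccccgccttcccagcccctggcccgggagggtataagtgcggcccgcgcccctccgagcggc
CDX2: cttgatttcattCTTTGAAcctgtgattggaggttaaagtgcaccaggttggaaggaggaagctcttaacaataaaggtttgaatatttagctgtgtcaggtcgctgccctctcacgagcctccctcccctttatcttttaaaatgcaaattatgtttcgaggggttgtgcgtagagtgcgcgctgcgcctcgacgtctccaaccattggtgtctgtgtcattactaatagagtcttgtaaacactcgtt
The TCF/LEF letters were in 2 of 7 member promoters and in 6.86% of 35116 RefSeq promoters of the same length. The T-box letters were in 0 of 7 and in 3.45%. A match describes these letters in this window and is not evidence of binding.

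MIXL1 had the highest level of all members in the naive state. It had 50.9, 59.9 and 56.0 FPKM in naive H9, against 18.7, 4.48 and 3.47 FPKM in primed H9. It had 91.0, 57.0 and 66.1 FPKM in naive libraries labelled RUES2, against 3.07, 2.80 and 13.8 FPKM in the primed ones. Primed H9 replicate 1 and primed replicate 3 with the RUES2 label stood above the other primed libraries, and both remained below every naive library. The log2 fold change was 2.85 ± 0.59 in H9 (SE, adjusted p = 0.00323) and 3.54 ± 0.59 in libraries labelled RUES2 (adjusted p = 0.000829), and the arithmetic mean FPKM was 6.26 and 10.9 times as high in the naive state.

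GSC was not called in either line. It had 1.05, 1.46 and 0.809 FPKM in naive H9, against 5.16, 0.617 and 2.93 FPKM in primed H9, and 7.48, 3.49 and 2.24 FPKM in naive libraries labelled RUES2, against 5.13, 2.39 and 3.70 FPKM in the primed ones. The groups overlapped in both lines. The log2 fold change was -0.70 ± 0.47 in H9 (SE, adjusted p = 0.253) and 0.11 ± 0.47 in libraries labelled RUES2 (adjusted p = 0.864). Primed H9 replicate 2 decided the H9 value, since without it GSC was lower in naive H9 by a log2 fold change of -1.23 (adjusted p = 0.0286).

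LHX1 was the one member called lower in naive H9. It had 0.181, 0.132 and 0.146 FPKM in naive H9, against 1.03, 1.97 and 0.318 FPKM in primed H9, without overlap. In libraries labelled RUES2 it had 0.963, 0.448 and 0.668 FPKM in the naive state, against 0.879, 0.983 and 2.41 FPKM in the primed state, where the groups overlapped. It fell by 0.79 on the log2 scale in H9 (SE 0.29, adjusted p = 0.0487), and the log2 fold change with the RUES2 label was -0.47 ± 0.29 (adjusted p = 0.209). The H9 call stood at the threshold and missed it when any naive H9 library, any naive library labelled RUES2, or primed replicate 1 or 2 with that label was left out (adjusted p 0.0524 to 0.107), in the fit of H9 alone (0.0703) and with no filter (0.0646). Without primed H9 replicate 1 or 2, or primed replicate 3 labelled RUES2, LHX1 no longer passed the filter.

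MESP1, a bHLH factor at chr15:90293098-90294540 that in the mouse marks mesoderm leaving the streak, including heart precursors, was low but separated the states. Its level was 2.12, 1.22 and 1.54 FPKM in naive H9, against 0.295, 0.373 and 0 FPKM in primed H9. In libraries labelled RUES2 it had 3.65, 1.77 and 3.08 FPKM in the naive state, against 0.217, 0.307 and 0.568 FPKM in the primed state. It was above 1 FPKM in 6 of 6 naive libraries and in 0 of 6 primed ones. MESP1 rose by 1.10 ± 0.21 on the log2 scale in H9 (SE, adjusted p = 0.00204) and by 1.47 ± 0.21 in libraries labelled RUES2 (adjusted p = 0.000333). If the authors' confidence bounds span 2 SD of the counting error on each side, they put 22 to 84 fragments behind each naive value and at most 13 behind each primed one.

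The posterior homeobox factors held the largest change of the 10. CDX1, at chr5:149546344-149564121, is an activator of HOX genes and a target of WNT signalling. It had 25.9, 31.4 and 26.2 FPKM in naive H9, against 0.045, 0.593 and 0.0707 FPKM in primed H9. It had 20.1, 10.6 and 24.6 FPKM in naive libraries labelled RUES2, against 0.0882, 0.107 and 0.48 FPKM in the primed ones. No primed library reached 1 FPKM, and primed H9 replicate 2 held most of what the primed H9 libraries had. CDX1 rose by 4.57 ± 0.28 on the log2 scale in H9 (SE, adjusted p = 1.67e-06) and by 3.93 ± 0.28 in libraries labelled RUES2 (adjusted p = 3.96e-06). Mean FPKM was 118 and 81.9 times as high, ratios that rest on primed values worth about 1 to 25.8 fragments each when the bounds are read as above.

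CDX2, at chr13:28536205-28543505, acts in the posterior embryo and, in the mouse, is a factor of trophectoderm. Its promoter letters are shown above. It had 9.13, 7.95 and 11.9 FPKM in naive H9, against 0, 1.38 and 0 FPKM in primed H9, so that primed H9 replicate 2 carried all of the primed signal. In libraries labelled RUES2 it had 4.14, 2.53 and 7.19 FPKM in the naive state, against 0.29, 0.0783 and 0.546 FPKM in the primed state. The log2 fold change was 2.98 ± 0.37 in H9 (SE, adjusted p = 0.000147) and 2.04 ± 0.37 in libraries labelled RUES2 (adjusted p = 0.00136).

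EVX1, at chr7:27282164-27286192 beside the HOXA cluster, is a posterior streak factor in the mouse. It had 2.68, 3.15 and 3.64 FPKM in naive H9, against 0, 1.08 and 0.0335 FPKM in primed H9. It had 1.06, 0.603 and 1.55 FPKM in naive libraries labelled RUES2, against 0.167, 0.0762 and 0.354 FPKM in the primed ones. Again primed H9 replicate 2 was the highest primed library. EVX1 rose by 1.68 ± 0.27 on the log2 scale in H9 (SE, adjusted p = 0.000714) and by 0.77 ± 0.27 in libraries labelled RUES2 (adjusted p = 0.0384). The call with the RUES2 label ended with a pseudocount of 0.1 (adjusted p = 0.0632), with no filter (0.0501), and when naive H9 replicate 2 or, of the libraries labelled RUES2, primed replicate 1 or 2 or naive replicate 1 or 3 was left out (adjusted p 0.0525 to 0.128).

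**Figure D2:**
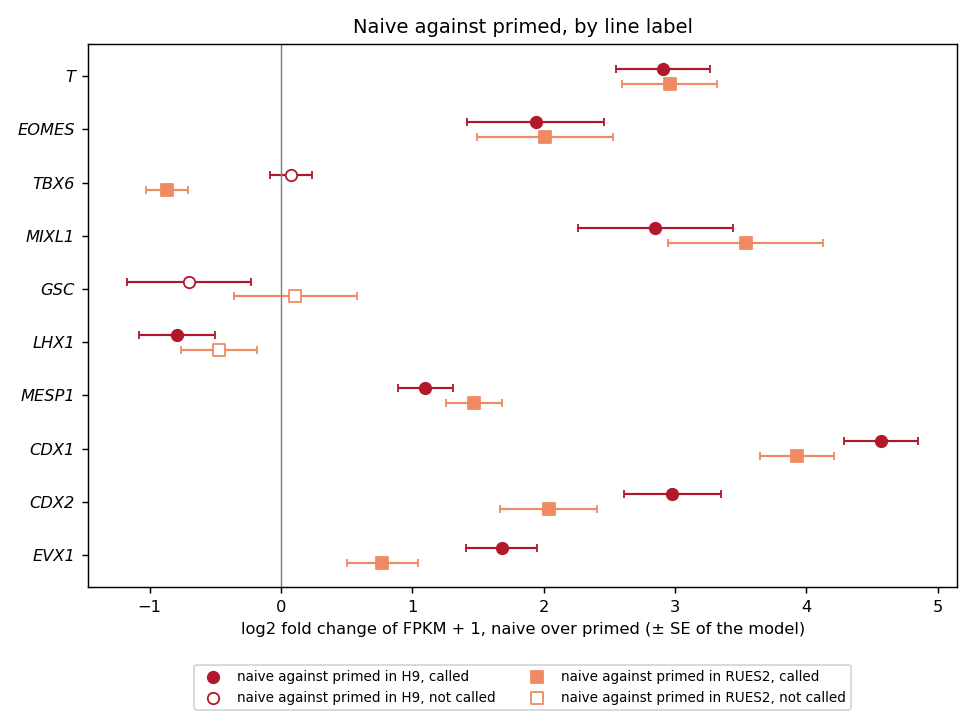
Log2 fold change of FPKM + 1, naive over primed, for each of the 10 factors in H9 (circles) and in libraries labelled RUES2 (squares), with the standard error of the limma model as bars; filled symbols are called at an adjusted p under 0.05. CDX1 has the highest value in both lines, at 4.57 and 3.93, and TBX6, GSC and LHX1 lie near or below 0.

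A smaller pseudocount widened the change of the low genes. With 0.1 in place of 1, the H9 log2 fold change was 2.67 for MESP1, 5.29 for CDX2, 3.69 for EVX1 and -1.97 for LHX1. Under the RUES2 label it was 2.67 for MESP1, 5.95 for CDX1, 3.61 for CDX2, 1.99 for EVX1 and -2.14 for TBX6. No member changed direction between states in a comparison where it was called.

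In H9, T, EOMES and MIXL1 varied more among primed libraries than among naive ones. MIXL1 spanned 0.23 log2 units among naive libraries and 2.14 among primed ones. EOMES spanned 0.22 units in naive H9 and 2.46 in primed H9, and T spanned 0.18 in naive H9 and 1.49 in primed H9. Under the RUES2 label MIXL1 spanned 0.66 units in naive and 1.96 in primed libraries and EOMES 0.66 in naive and 1.13 in primed ones, while T spanned 0.89 in naive and 0.81 in primed ones. T, EOMES and MIXL1 ranked alike at the top, with primed H9 replicate 1 first, primed replicate 3 of the RUES2 label next and primed H9 replicate 2 after them. CDX1, CDX2 and EVX1 shared another leading pair, primed H9 replicate 2 and then primed replicate 3 of the RUES2 label. Within primed H9, LHX1 and MESP1 were also highest in replicate 2, GSC in replicate 1 and TBX6 in replicate 3. Whether these libraries held some differentiating cells was not tested. The 12 listed definitive endoderm markers summed to 34.3 to 815 FPKM over the primed H9 libraries, and LEFTY1 and LEFTY2, which NODAL signalling switches on, were the largest part of the sum in replicates 1 and 3. LEFTY1 had 419.7, 7.31 and 501 FPKM in primed H9 replicates 1, 2 and 3. Replicate 2 was thus the lowest, as it was for GSC, whereas T, EOMES and MIXL1 were lowest in replicate 3.

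**Figure D3:**
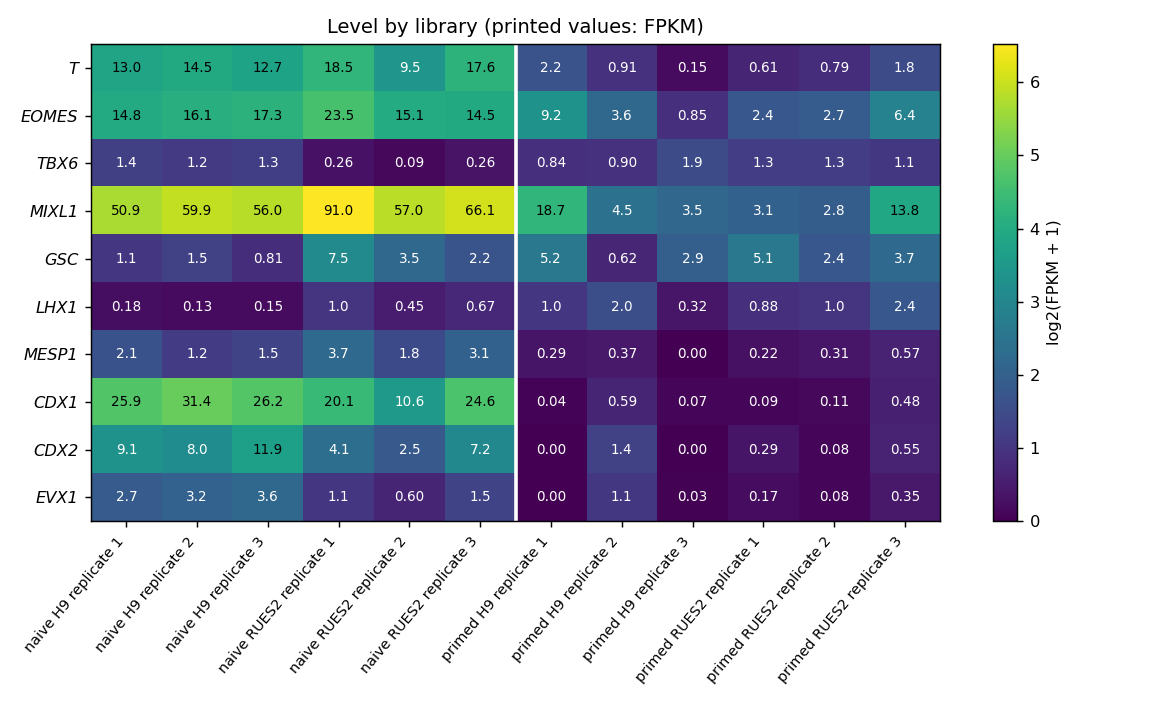
Log2(FPKM + 1) of the 10 factors in all 12 libraries, with the 6 naive libraries left of the 6 primed ones and the white line between them; colour gives the level, and the printed values are FPKM. The block of 7 factors that are high in naive libraries is visible beside the scattered values of primed H9 replicates 1 and 2 and of primed replicate 3 labelled RUES2.

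Between line labels, none of the members was called in the primed state, where 1.34% of all genes tested were called higher and 0.471% lower in libraries labelled RUES2. The limma adjusted p-values ran from 0.754 to 1, and 0 of the 10 had an unadjusted p under 0.05. In the naive state 2 members, TBX6 and EVX1, were lower in libraries labelled RUES2 than in H9, beside 11.2% of all genes called higher and 4.69% called lower. TBX6 differed by -0.92 ± 0.16 (SE, adjusted p = 0.00373) and EVX1 by -1.03 ± 0.27 (adjusted p = 0.0286). The EVX1 call ended with a pseudocount of 0.1 (adjusted p = 0.217) and when any naive H9 library or naive replicate 1 or 2 labelled RUES2 was left out (0.0611 to 0.116).

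In the naive state several members separated the line labels library by library. All 3 naive libraries labelled RUES2 were below all 3 naive H9 libraries for CDX1, CDX2, EVX1 and TBX6, and above them for GSC and LHX1. Such separation is common, since 19.3% of all genes tested were below and 26.9% above in this way. Of these, CDX1 (log2 difference -0.64, adjusted p = 0.146), CDX2 (-0.99, 0.0993), GSC (1.25, 0.102) and LHX1 (0.54, 0.24) did not pass the test. Single libraries decided some of them. GSC passed without primed H9 replicate 2 (adjusted p = 0.0385), CDX2 passed without that library (0.038) or without naive replicate 3 labelled RUES2 (0.0471), and MESP1 passed without naive replicate 2 labelled RUES2 (log2 difference 0.75, 0.0444).

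The naive effect itself differed between line labels for TBX6 alone among the 10, beside 3.77% of all genes called with a higher and 1.93% with a lower effect in libraries labelled RUES2. For the 7 members that rose in both lines the difference of effects ran from -0.94 (CDX2) to 0.69 (MIXL1), and the adjusted p from 0.203 to 0.97. For EVX1 the difference was -0.91 ± 0.38 (SE, adjusted p = 0.203), and without primed H9 replicate 2 it was -1.26 (adjusted p = 0.0247).

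Genes upstream of the streak moved as well. Of 10 signals that induce it, 9 were higher and 1, TDGF1, was lower in naive H9, and 8 were higher and TDGF1 lower in naive libraries labelled RUES2 (median log2 fold change 2.09 and 1.93). WNT8A, a WNT ligand of the streak, averaged 21.2 ± 2.86 FPKM in naive H9 and 0.922 ± 0.364 FPKM in primed H9 (SD, n = 3 each). With the RUES2 label it averaged 11.5 ± 2.13 FPKM in naive and 0.534 ± 0.177 FPKM in primed libraries, and the adjusted p was 4.44e-07 in H9 and 1.36e-06 there. FGF8, a growth factor of the streak, rose by 2.30 (adjusted p = 0.0114) and 2.40 (0.00851) on the log2 scale, and FGF4 by 2.29 (0.00117) and 2.02 (0.00215). NODAL, the ligand that maintains the streak, averaged 90.8 ± 15.9 FPKM in naive H9 and 30.3 ± 23.3 FPKM in primed H9 (SD, n = 3 each). Its H9 call (log2 fold change 2.15, adjusted p = 0.0413) ended under 9 of 19 alternatives (adjusted p up to 0.111), and its call with the RUES2 label under 2 (up to 0.0592). The FGF8 call ended in the fit of H9 alone (0.0562). Within primed H9, replicate 2 was low for NODAL, at 3.32 FPKM against 44.5 and 42.9 FPKM in replicates 1 and 3. The same library was lowest for FGF8 (1.25 against 15.5 and 13.6 FPKM) and FGF4 (0.387 against 3.89 and 2.13 FPKM). For WNT8A and BMP4 that library was the highest of primed H9. BMP4 rose by 2.59 in H9 (adjusted p = 0.000255), and its log2 fold change of 0.69 with the RUES2 label was not called (0.134).

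Targets of beta-catenin are genes that WNT signalling switches on, and many of them limit the signal in turn. Those listed were higher in 12 of 13 tested cases in naive H9 and in 10 of 13 with the RUES2 label (median log2 fold change 2.54 and 1.39). SP5, a transcription factor of this kind, averaged 94.8 ± 14.4 FPKM in naive H9 and 4.22 ± 4.04 FPKM in primed H9 (SD, n = 3 each, adjusted p = 0.000119). The summed level of the 14 listed genes was 247 to 302 FPKM in naive H9, against 23.8 to 42 FPKM in primed H9. Naive libraries labelled RUES2 had 141 to 212 FPKM, against 34 to 40.1 FPKM in the primed ones. The effect was smaller with the RUES2 label for 4 of them, AXIN2, NKD1, RNF43 and TNFRSF19.

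Most tested genes of the same embryonic region were higher in naive cells too. Of 16 other streak and nascent mesoderm factors, 13 were tested, and 10 rose in naive H9 and 9 in naive libraries labelled RUES2. APLNR, a receptor of migrating mesoderm, averaged 57.7 ± 16.9 FPKM in naive H9 and 2.63 ± 2.95 FPKM in primed H9 (SD, n = 3 each, adjusted p = 0.000436). HAND1, a factor of extraembryonic and lateral mesoderm, rose by 4.27 on the log2 scale in H9 (adjusted p = 0.0016) and by 2.82 with the RUES2 label (0.0138), and SNAI2 and GATA4 rose in both lines as well. The HAND1 call with the RUES2 label ended with a pseudocount of 0.1 and without primed replicate 2 of that label (adjusted p up to 0.0547). Of 12 tested caudal and neuromesodermal genes, 11 rose and CYP26A1 fell in naive H9, and 9 rose with the RUES2 label. The 2 listed genes under the filter were CDX4 and EVX2. CDX4 had lower means in naive cells, 0.0503 ± 0.044 against 0.755 ± 0.693 FPKM in H9 (SD, n = 3 each). With the RUES2 label its means were 0.15 ± 0.201 and 1.07 ± 0.937 FPKM, and the libraries overlapped. EVX2 did not exceed 0.0437 FPKM in any library. HOXB1, an anterior HOX gene activated early in the posterior embryo, averaged 31.8 ± 7.65 FPKM in naive H9 and 0.204 ± 0.182 FPKM in primed H9 (SD, n = 3 each). With the RUES2 label it averaged 9.76 ± 2.68 FPKM in naive and 0.252 ± 0.0776 FPKM in primed libraries, and the adjusted p was 2.17e-07 in H9 and 2.6e-06 there. GBX2, which also acts in the hindbrain region, and HOXB2 rose in both lines.

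Factors of the anterior epiblast went the other way. Of 8 tested, 5 were lower in naive H9, and 5 were lower and LMO3 higher with the RUES2 label (median log2 fold change -1.88 and -1.10). OTX2, a homeobox factor of the forebrain and anterior epiblast, averaged 8.95 ± 1.31 FPKM in naive H9 and 53.6 ± 14.6 FPKM in primed H9 (SD, n = 3 each). FEZF1, a forebrain factor, was nearly off in naive cells, at 0.0831 ± 0.0359 FPKM in naive H9 and 26.5 ± 11.5 FPKM in primed H9 (SD, n = 3 each). HESX1 and FZD5 fell in both lines, the FZD5 call with the RUES2 label ending without primed replicate 1 or 2 or naive replicate 3 of that label (adjusted p up to 0.0835). Of 10 pluripotency genes, 5 were lower in naive H9, and 8 were lower and NANOG higher with the RUES2 label.

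**Figure D4:**
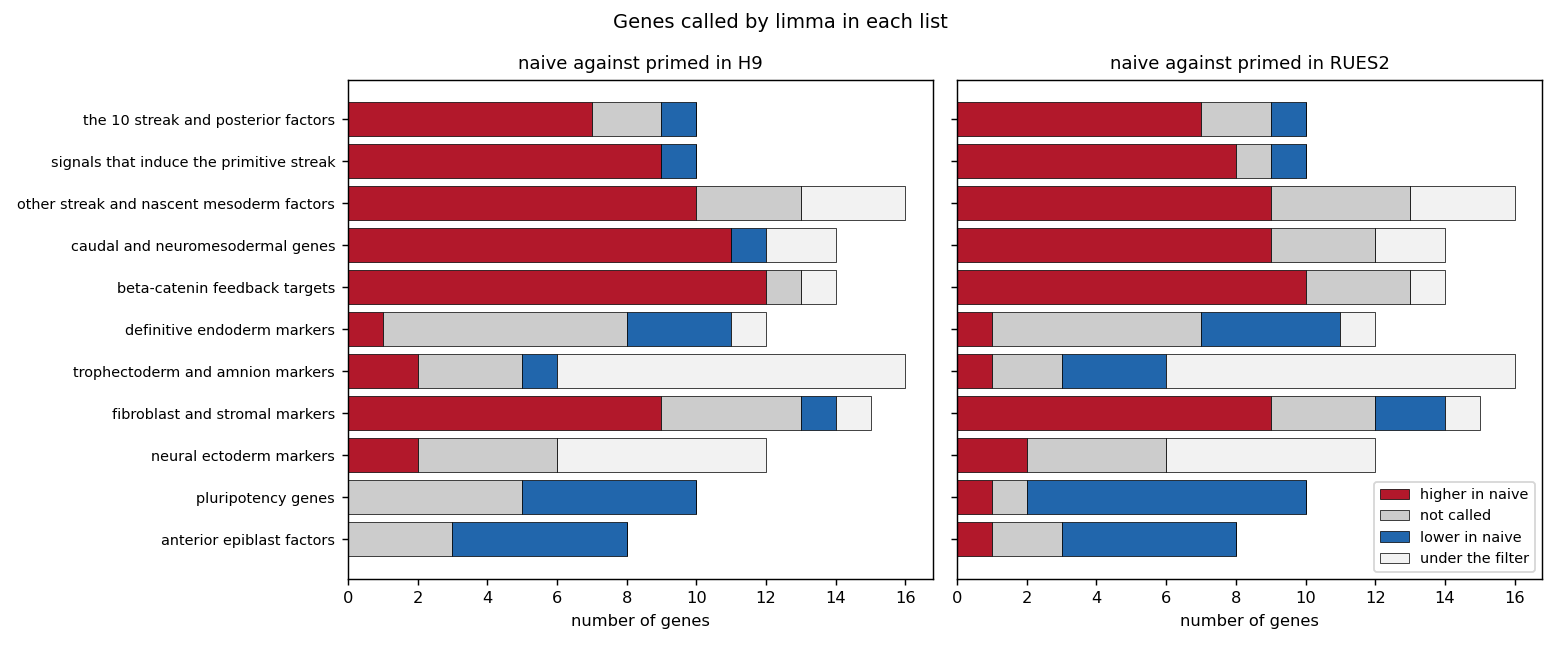
Number of genes of each list called higher in naive cells (red), not called (grey), called lower (blue) or under the filter (pale), at an adjusted p under 0.05, in H9 (left panel) and in libraries labelled RUES2 (right panel). Signals of the streak, caudal genes and beta-catenin targets are mostly red, with 9, 11 and 12 genes in H9, and blue genes are most frequent among pluripotency and anterior epiblast genes.

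Markers of other cell types moved with the states too, and their part in the members' levels was not tested. Of 14 tested fibroblast and stromal markers, 9 were higher and THY1 lower in naive H9, and 9 were higher and THY1 and S100A4 lower with the RUES2 label. The 15 listed summed to 774 to 1015 FPKM in naive H9, against 336 to 489 FPKM in primed H9. The sum was 563 to 1566 FPKM in naive libraries labelled RUES2, against 180.3 to 327 FPKM in the primed ones. COL3A1, a fibrillar collagen, averaged 161 ± 56.5 FPKM in naive H9 and 2.51 ± 2.7 FPKM in primed H9 (SD, n = 3 each), and LUM, DCN and COL6A3 rose in both lines. The COL6A3 call with the RUES2 label ended without primed replicate 1 or 2 or naive replicate 3 of that label (adjusted p up to 0.0828).

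Trophectoderm and amnion markers, relevant because CDX2 also belongs to trophectoderm, were called in both directions. Of 16 listed, 6 were tested, and 2 (TFAP2A, TFAP2C) were higher and KRT7 lower in naive H9. With the RUES2 label ISL1 was higher and GATA3, KRT7 and IGFBP3 lower. ELF5, 1 of the 10 listed genes under the filter, was at 0 to 0.0322 FPKM over the naive H9 libraries and 0 to 0.026 FPKM over the primed H9 ones. No library labelled RUES2 exceeded 0.0246 FPKM for it. TFAP2C, in contrast, had 17.7 to 19 FPKM in naive H9 and 16.8 to 20.8 FPKM in naive libraries labelled RUES2. The 16 listed summed to 26.4 to 33 FPKM in naive H9, against 13.1 to 18.1 FPKM in primed H9, and to 25.6 to 38 FPKM in naive libraries labelled RUES2, against 38.4 to 51.5 FPKM in primed ones. Of 11 tested definitive endoderm markers, KLF8 was higher and SOX17, HHEX and FOXA3 were lower in naive H9. With the RUES2 label SOX17 was higher and HHEX, FOXA3, GATA3 and TTR were lower, GATA3 being the same gene as on the trophectoderm and amnion list. The SOX17 call ended under 8 of 18 alternatives in H9 (adjusted p up to 0.115) and under 3 with the RUES2 label (up to 0.0683). Of 6 tested neural markers, OLIG3 and NES were higher in naive H9, and OLIG3 and FABP7 with the RUES2 label. The NES call ended under 4 of 19 alternatives (adjusted p up to 0.0866).

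For each member, the 2 other genes with the most similar profile over the 12 libraries were taken by the root mean square difference of log2(FPKM + 1) after centring each gene. The libraries share depth and state, so a small difference describes the profiles and carries no test. GBX2 was among the nearest to CDX1, at 0.44, where the spread of CDX1 itself was 2.16. LEF1 lay nearest to CDX2, at 0.30, and the spread of CDX2 was 1.37. DKK1 (0.66) and HOXB-AS5 (0.65) lay nearest to MIXL1 (spread 1.74), and MFAP3L (0.37) and HOXB-AS5 (0.38) to T (spread 1.52). SMYD2 (0.44) and ARRB1 (0.45) lay nearest to EOMES, whose spread was 1.15, and NQO1 and IGDCC3 (0.21 each) to EVX1, whose spread was 0.77. KRT16P3 and ATG9B (0.20 each) lay nearest to MESP1 (spread 0.71), NMU (0.39) and IL23A (0.41) to GSC (spread 0.72), SPIB and CORO1A (0.25 each) to LHX1 (spread 0.50), and LOC100506990 (0.16) and MEIS3P1 (0.18) to TBX6 (spread 0.41).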

How the data were processed

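Poly(A) RNA of manually picked colonies was sequenced in 12 libraries, 3 in each of 4 groups. The submitters' processing notes name TopHat2 2.1.1, bcl2fastq 2.17.1.14 and the build hg19. Which program and annotation gave the expression values was not given in the sources used here. Deposited values are FPKM with confidence bounds, 1 table for each library, per the file headers, although RPKM is the term in the design text. The tables list 25278 entries for 23615 symbols, and 23613 were analysed. No read counts are in these tables, so no count test was run and depth is known only as a relative value from the bounds, over 11241 genes. 0 pairs of libraries held identical values, and no listed entry overlapped a member's locus. Whether the libraries keep strand was not given in the sources used here.

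After log2(FPKM + 1), limma 3.58.1 (R 4.3.3) tested the 14428 genes that reached 1 FPKM in 3 or more libraries, two-sided, with 1 mean per group over all 12 libraries, an empirical Bayes variance trend and Benjamini-Hochberg adjustment over all genes tested. The script was tested on simulated data. It compared naive with primed cells in each line, these effects with each other, and the RUES2 label with H9 in each state. Alternatives were a pseudocount of 0.1, no filter, a filter of 5 FPKM, median-ratio scaling, no variance trend, the replicate number as a block, only the groups compared, and leaving out each library.

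The members and the gene lists were chosen with earlier results of these data known. Named genes are the members, up to 4 called genes per list with the largest change in H9, and the 2 genes nearest to each member; list genes named beyond these, such as single exceptions, were chosen after their values were seen. Tables and plots used Python 3.11.15, pandas 2.3.3, numpy 2.4.6 and matplotlib 3.10.9. A few genes that the naming rule selected are not reported here.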

Additional observations from a re-analysis of the deposited data

Results flagged for a closer look

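Over all genes tested, the naive effect was called different between the 2 line labels for 823 (limma interaction, RUES2 label minus H9, on the log2 scale). Other genes named above, such as AXIN2, TNFRSF19 and NANOG, are among them (adjusted p = 0.00816, 0.0261 and 0.00516). The 7 genes flagged here are a part of the 823 and not the whole. Among the members this was TBX6, with a difference of -0.95 (effects of -0.87 with the RUES2 label and 0.08 in H9, adjusted p = 0.0355). MSGN1, another presomitic mesoderm factor, chosen after its values were seen, had a difference of -1.55 (0.25 with the RUES2 label and 1.80 in H9, adjusted p = 0.0189). MSGN1 averaged 2.84 ± 1.22 FPKM in naive H9 and 0.0631 ± 0.109 FPKM in primed H9, and 0.246 ± 0.217 FPKM in naive and 0.0369 ± 0.0639 FPKM in primed libraries labelled RUES2 (SD, n = 3 each). It reached 1 FPKM in the naive H9 libraries alone and so passed the filter only through the group where it was high. Its difference is therefore no support for a pattern shared with TBX6. HOXB1 had a difference of -1.68 (3.08 with the RUES2 label and 4.76 in H9, adjusted p = 0.00886). NKD1, a beta-catenin target, had a difference of -1.26 (1.85 with the RUES2 label and 3.11 in H9, adjusted p = 0.00781). RNF43, another one, had a difference of -1.10 (2.12 with the RUES2 label and 3.22 in H9, adjusted p = 0.0109). The neural marker OLIG3 had a difference of -1.21 (2.63 with the RUES2 label and 3.84 in H9, adjusted p = 0.0296). The endoderm marker SOX17 differed the other way, by 1.49 (0.79 with the RUES2 label and -0.69 in H9, adjusted p = 0.0303).

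NKD1 and RNF43 passed the threshold under every alternative run. The adjusted p of TBX6 reached 0.0961, that of HOXB1 0.0977, that of MSGN1 0.0694, that of SOX17 0.0785 and that of OLIG3 0.0771 under at least 1 alternative. Since 3 of 12 libraries, none labelled H9, differed from the rest of the libraries given that line name, a difference between labels cannot be read as a difference between the named lines.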

How the results depend on the processing

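The 7 members that were higher in naive H9 numbered 5 to 7 under the other settings and 7 to 8 when 1 library was left out, and those higher with the RUES2 label 5 to 7 and 6 to 7. With a filter of 5 FPKM only 6 members were tested. The count of members lower in naive H9, 1 in the reported fit, was 0 with no filter, with the filter of 5 FPKM, with the replicate block and with only the groups compared, and 0 to 1 with a library left out. With the filter of 5 FPKM 0 members were lower with the RUES2 label, 0 had a lower effect there (0 to 1 with a library left out) and 0 were lower in the naive line comparison. In that comparison 1 member was lower with a pseudocount of 0.1 and 1 to 3 with a library left out, and 1 was higher with only the groups compared (0 to 1 with a library left out). Over all genes, 424 differed in effect with the filter of 5 FPKM, against 823 in the reported fit (379 to 861 with a library left out). Between lines in the primed state 102 were called with that filter, 170 with the replicate block and 27 with only the groups compared, against 262 (44 to 385). In the naive state 1469 were called with that filter, against 2289 (1179 to 2814). Beyond the smaller number of genes or libraries tested, the cause was not tested.

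Replicate numbers showed no clear pairing of the libraries. Deviations of same-numbered libraries correlated at -0.054 to 0.136, over 0.1 in 2 of 18 pairs, and those of other-numbered libraries at -0.161 to 0.114. Correlations this small cannot settle whether a number marks a shared batch. Under the replicate block the adjusted p was 0.0791 for LHX1 in H9 and 0.0545 for EVX1 with the RUES2 label, and no other member's call changed. Low expression limits MESP1, LHX1, TBX6 and the primed values of CDX1, CDX2 and EVX1, many of which rest on few fragments. Some rest on more when the bounds are read as counting error. LHX1 had about 172 fragments in primed H9 replicate 2 and 180 in primed replicate 3 labelled RUES2, and CDX2 had 81.9 in primed H9 replicate 2.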
